A study of Mus musculus with 8 samples.

Results

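The 36 genes described here encode the enzymes, regulatory kinases and phosphatases and carriers that bring pyruvate into mitochondria, run the tricarboxylic acid (TCA) cycle and join it to glutamate. They were taken by symbol from a table of 16308 genes measured in mouse CD4 T cells, by their function and with no threshold on their values. All 36 were found, and all 36 were among the 11989 genes that passed the filter on low counts. The Th17 group held 2 libraries of C57BL/6 CD4 T cells kept for 72 h with IL-6 (20 ng/mL) and TGF-β (0.1 ng/mL) on antibodies to CD28 (1 µg/mL) and CD3ε (0.25 µg/mL), which turns naive cells into interleukin-17 producers in vitro. The protocol fields of the labels also name a wider TGF-β range and a shorter time. The naive group held 2 libraries of untreated naive CD4+ cells of the same strain. A further 2 libraries of DDX5-deficient Th17 cells and 2 of wild-type Th17 cells, cultured likewise, entered only through a table of edited RNA sites. How DDX5 was removed, and the age and sex of the mice, are not given in the sources used here. The design text calls replicates independent, but the labels do not say which animal each came from. The libraries numbered 2 of both groups share a code in their descriptions and those numbered 1 do not, and what the code stands for is not stated. The p-values therefore measure the spread between these libraries.

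Pyruvate, the end product of glycolysis, either leaves the cell as lactate or crosses the inner mitochondrial membrane through the MPC1-MPC2 carrier. Inside, the pyruvate dehydrogenase complex turns it into acetyl-CoA, a step that PDK kinases switch off and PDP phosphatases switch on, or pyruvate carboxylase turns it into oxaloacetate. Citrate synthase opens the TCA cycle, whose citrate can also be exported and split by ATP-citrate lyase into cytosolic acetyl-CoA for lipids and histone acetylation. Glutamine feeds the cycle by way of glutamate, which glutamate dehydrogenase and the aminotransferases turn into 2-oxoglutarate. Several of these reactions exist in a cytosolic and a mitochondrial form, encoded by separate genes. T cells that leave the naive state are known for a higher use of both glucose and glutamine.

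Reads on genes numbered 26624436 and 11768994 in Th17 libraries 1 and 2, against 20426728 and 16154625 in naive libraries 1 and 2. Levels are given as CPM, the reads of a gene per 1000000 of a library size scaled by TMM, and fold changes are Th17 over naive on a log2 scale. In such bulk RNA, fewer cells of a type and less RNA per cell cannot be told apart. All 6 CD4 T cell markers had reads in every library and summed to 2095 and 1827 CPM in Th17 libraries, against 4623 and 5264 CPM in naive libraries. The 6 Th17 markers, among them Il17a, summed to 3979 and 3568 CPM in Th17 libraries and to 0.796 and 0.563 CPM in naive libraries, and the 4 markers of dividing cells to 853 and 692 CPM, against 34.3 and 16.3 CPM. The 6 naive T cell markers summed to 1138 and 1067 CPM in Th17 libraries and 6581 and 6906 CPM in naive libraries. B cell, myeloid, CD8 T and NK, and erythroid markers summed to at most 20.6 CPM in any Th17 library and at most 43.0 CPM in any naive library.

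Th17 library 2 stood apart from the other 3 libraries in genes that T cells are not known for. The 12 kidney tubule markers, a list added after this was seen, summed to 1.35 CPM in Th17 library 1 and 1816 CPM in Th17 library 2, against 1.06 and 0.986 CPM in naive libraries. All 12 were higher in Th17 library 2 than in Th17 library 1, with Kap at 988 CPM and Umod at 107 CPM in library 2 and 0 reads of either in library 1. Of these 12, 5 had 0 reads in Th17 library 1, 0 of them in Th17 library 2, and 7 and 8 of them in the naive libraries. The 11 fibroblast markers summed to 4.96 and 1525 CPM in Th17 libraries, against 1.38 and 0.704 CPM in naive libraries. Some of them stayed low in Th17 library 2, with Dcn at 2.80 CPM, against 2.05 CPM in Th17 library 1, and Pdgfra at 2.05 CPM. The 5 endothelial markers summed to 0.104 and 134 CPM, against 0.690 and 0.845 CPM. That sum in Th17 library 2 was mostly Kdr (104 CPM) and Tek (26.4 CPM). Vwf was at 0.606 CPM there, and Cdh5, at 0.530 CPM, was below both naive libraries (0.584 and 0.775 CPM). Of the 36 pathway genes, 29 lay within 1.5-fold of each other in the Th17 libraries. The other 7 were higher in Th17 library 2: Me1 by 24.8-fold, Pdk2 by 6.70-fold, Idh1 by 3.91-fold, Ldhb by 1.98-fold, Pcx by 1.90-fold, Mpc2 by 1.63-fold and Idh2 by 1.52-fold. The part of this other RNA in their values was not tested, and counts are given with all 4 libraries and without Th17 library 2, as are single genes whose call or direction differs between the fits.

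**Figure D1:**
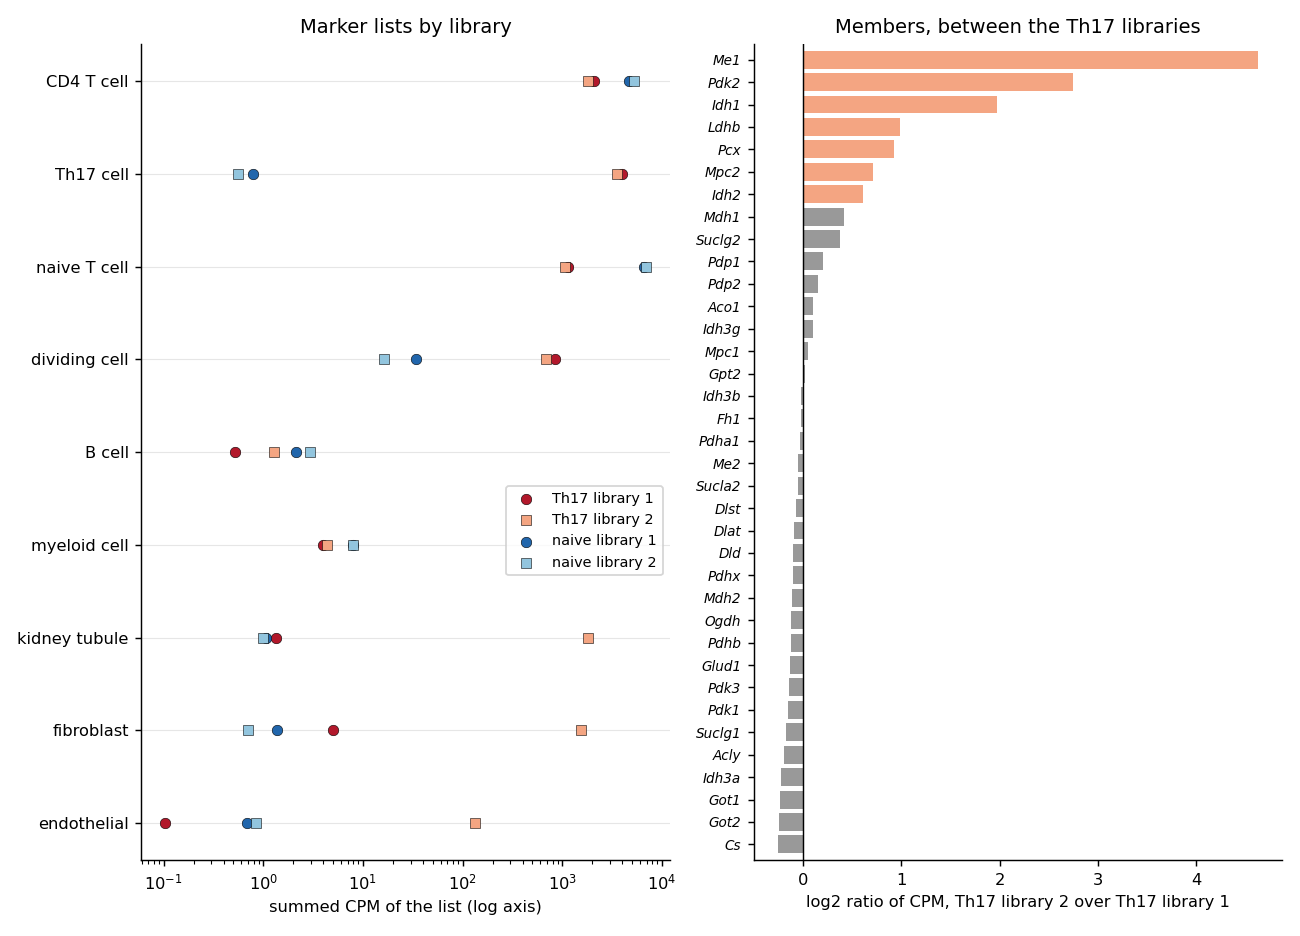
Left, the summed CPM (log axis) of each marker list in the 2 Th17 and 2 naive libraries, where Th17 library 2 alone reaches 1816 CPM for kidney tubule and 1525 CPM for fibroblast markers. Right, the log2 ratio of CPM in Th17 library 2 over Th17 library 1 for each of the 36 genes, with the 7 genes over 1.5-fold higher in library 2 coloured.

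More of these genes were higher than lower in Th17 cells, and the median change was largest in the group of glutamate enzymes. Of the 36 genes, 18 rose and 3 fell at an adjusted p under 0.05 by the quasi-likelihood test of edgeR, adjusted after Benjamini and Hochberg over all 11989 genes, and 15 did not pass. That is 50% higher and 8.33% lower, beside 34.3% of all tested genes called higher and 30.7% called lower. The median log2 fold change was 0.56 over the 36 genes and 0.06 over all tested genes. Their levels summed to 5146 and 5029 CPM in Th17 libraries, against 3702 and 4034 CPM in naive libraries. Without Th17 library 2, 19 rose and 3 fell with a median of 0.62, beside 34.4% and 29.5% of all 12247 genes then tested. In 32 of the 36 genes the Th17 and naive libraries did not overlap, 88.9% of them, beside 85.0% of all tested genes. Mpc2, Pdk2, Ldhb and Suclg2 did overlap. With unscaled library sizes the median of all genes moved by 0.30 to 0.36, and the calls became 5186 higher and 2619 lower over all genes, against 4116 and 3684, and 23 and 1 among the 36. The authors' deposited table called 19 of the 36 higher and 4 lower.

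**Figure D2:**
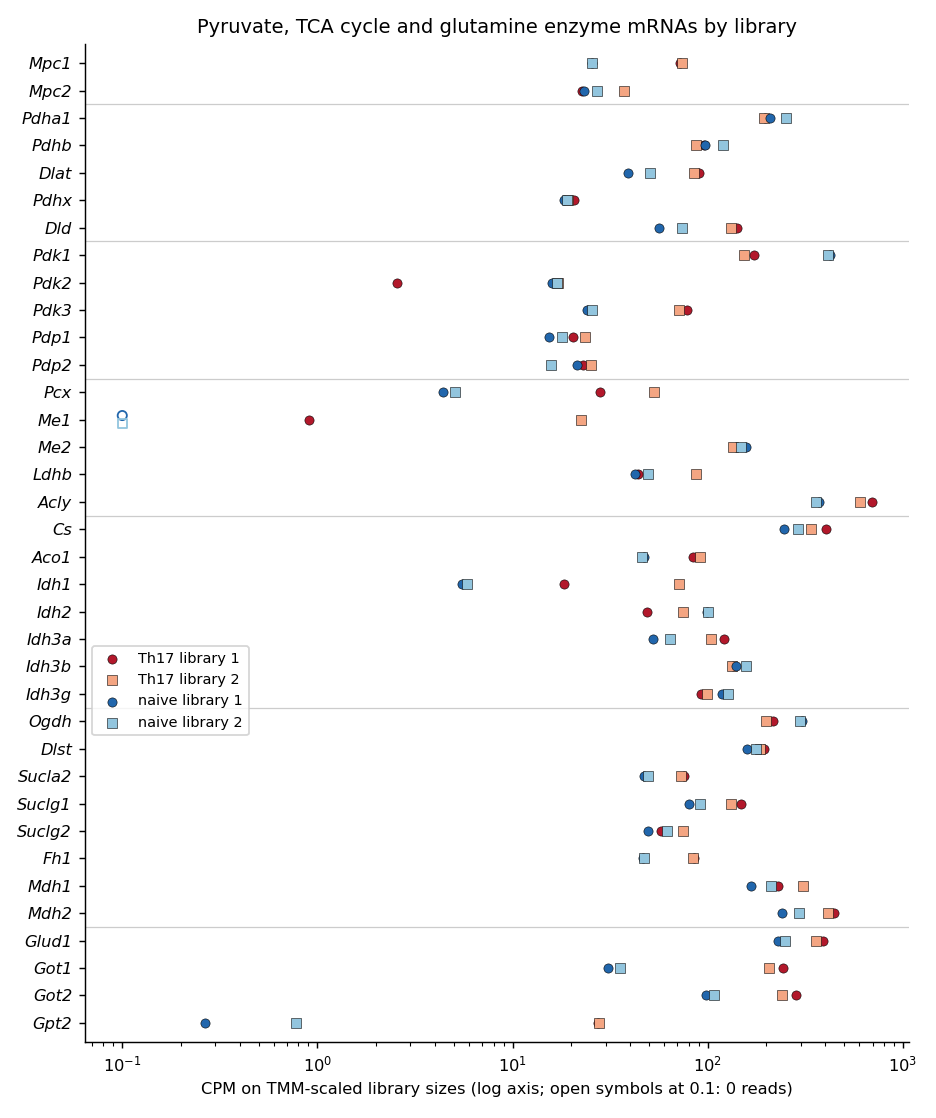
CPM on TMM-scaled library sizes (log axis) of the 36 genes in each of the 2 Th17 libraries (red) and 2 naive libraries (blue), grouped by role, with open symbols for 0 reads. The Gpt2 points lie at 27.6 and 27.9 CPM in Th17 libraries, against 0.265 and 0.775 CPM in naive libraries, while Pdk1 is lower in both Th17 libraries.

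**Figure D3:**
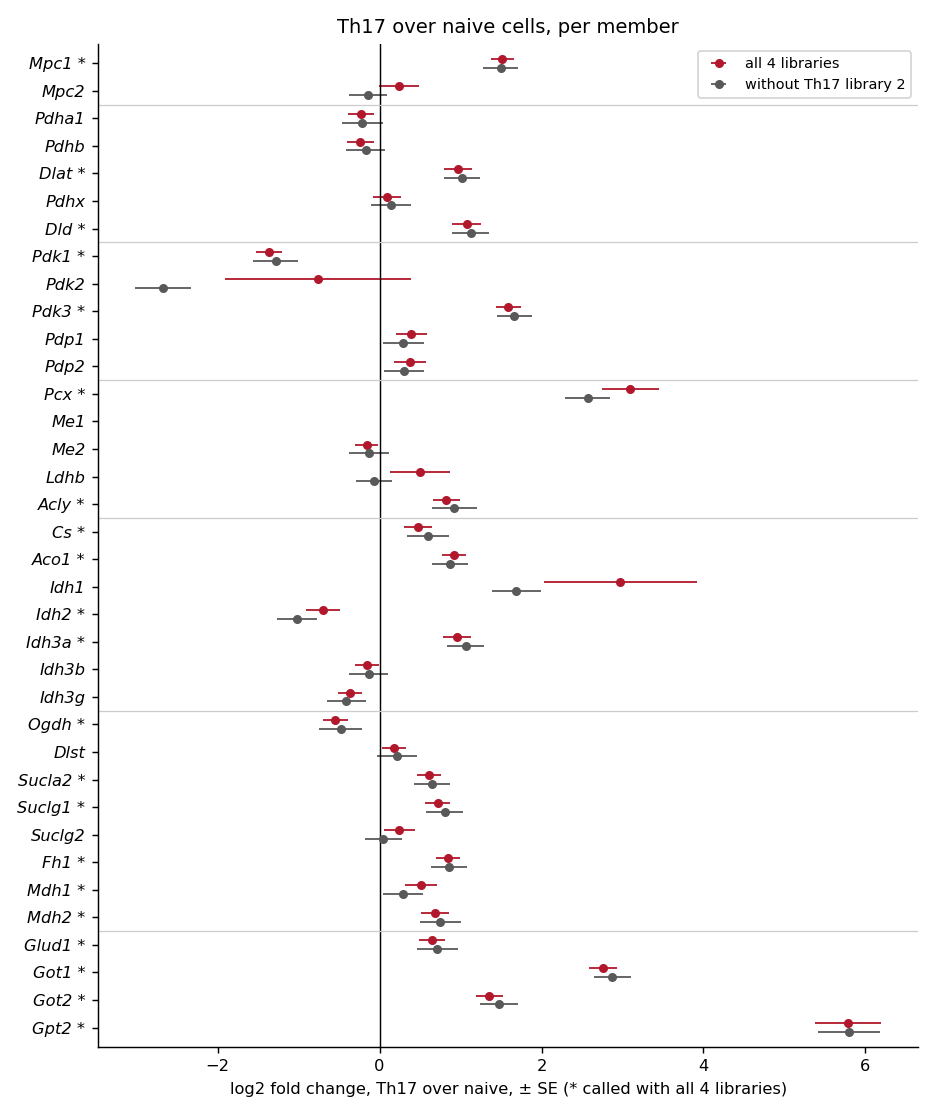
Th17 over naive log2 fold change and its SE for each of the 36 genes, with all 4 libraries (red) and without Th17 library 2 (grey); an asterisk marks the 21 genes called with all 4 libraries, and Me1, with no naive read, has no point. The grey point of Pdk2 sits at -2.67, against a red point at -0.76, and that of Idh1 at 1.69, against 2.97.

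The stretches before the transcription starts of 3 genes are shown because they belong to the pyruvate carboxylase, aspartate aminotransferase and kinase genes on which the contrasts below turn, and each holds a match to a motif that was searched. They are the 250 bases before the start in the RefSeq promoters of GRCm38.p6, the same assembly as mm10, and capitals mark the motif matches.
Pcx (chr19:4510222-4510471, plus strand): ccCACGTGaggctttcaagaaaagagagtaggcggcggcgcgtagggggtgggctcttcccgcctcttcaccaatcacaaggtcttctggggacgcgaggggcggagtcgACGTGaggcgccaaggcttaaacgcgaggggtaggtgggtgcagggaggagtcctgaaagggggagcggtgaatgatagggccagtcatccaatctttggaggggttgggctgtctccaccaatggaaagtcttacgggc
Got1 (chr19:43524606-43524855, minus strand): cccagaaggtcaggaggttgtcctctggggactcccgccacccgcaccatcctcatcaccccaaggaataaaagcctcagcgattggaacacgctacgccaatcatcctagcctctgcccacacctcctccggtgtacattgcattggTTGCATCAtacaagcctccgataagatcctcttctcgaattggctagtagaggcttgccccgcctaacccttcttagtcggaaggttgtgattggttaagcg
Pdk3 (chrX:93832151-93832400, minus strand): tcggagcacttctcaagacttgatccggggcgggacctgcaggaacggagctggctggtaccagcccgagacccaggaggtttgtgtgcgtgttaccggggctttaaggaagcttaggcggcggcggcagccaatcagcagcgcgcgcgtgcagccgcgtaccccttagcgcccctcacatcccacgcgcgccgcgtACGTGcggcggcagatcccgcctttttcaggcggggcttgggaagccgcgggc
The motifs, searched on both strands from 250 bases before to 50 bases after the start, were CACGTG, the E-box bound by MYC, ACGTG, the core bound by HIF, which lies within CACGTG, and TGATGNAA, bound by ATF4 with C/EBP proteins. In Got1 the capitals are the match to TGATGNAA read from the other strand. Of 32851 mouse promoters, 7.15% held CACGTG, 19.6% ACGTG and 3.97% TGATGNAA. The table had 44 promoters for 33 of the 36 genes. CACGTG was found in 6 of the 44, of Ogdh, Pcx, Pdk2 and Pdp2, and ACGTG in 15 of the 44, of these and Acly, Idh3g, Mdh1, Me1, Pdhb and Pdk3, while TGATGNAA was found only in Got1. Ogdh has several of these promoters, with windows that overlap in part, so the same match was counted more than once. Counted by gene, 4 of the 33 held CACGTG and 10 held ACGTG, a share not measured over all genes. Of the 17 genes that rose and had a promoter there, 4 held ACGTG. Gpt2, Mpc1 and Pdk1, whose changes were also large, held none of the 3 motifs in these windows. A match is a description of the letters and not a binding site.

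At the entry of pyruvate, Mpc1 rose and its partner Mpc2 did not pass. Mpc1 (chr17:8282904-8297661) and Mpc2 (chr1:165460637-165481214, both mm10) encode the subunits of the mitochondrial pyruvate carrier, which works as a heterodimer. Mpc1 had 71.9 and 74.3 CPM in Th17 libraries, against 25.6 and 25.4 CPM in naive libraries. The replicates nearly coincided and the groups stood far apart, with a log2 fold change of 1.52 (SE 0.15, edgeR adjusted p 3.0e-05). The Mpc1 level was 2.86-fold higher, or 2.82-fold without Th17 library 2. Mpc2 had 22.7 and 37.1 CPM in Th17 libraries, against 23.2 and 27.1 CPM in naive libraries. Its groups overlapped, and its log2 fold change of 0.24 (SE 0.25, edgeR adjusted p 0.41) was -0.14 without Th17 library 2 and 0.53 without Th17 library 1, when it passed at an edgeR adjusted p of 0.034. Within a library, the log2 ratio of Mpc1 to Mpc2 reads was 1.66 and 1.00 in Th17 cells, against 0.14 and -0.09 in naive cells. Mpc1 shares 480 exon bases with 4930506C21Rik on the other strand and has the named pseudogene Mpc1-ps, and whether counting used strand is not stated.

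Within the pyruvate dehydrogenase complex, 2 of 5 genes rose and 0 fell. That is 40% and 0%, beside 34.3% of all tested genes called higher and 30.7% called lower, so the share that rose was near that of all genes. The 2 that rose are described first. They were Dlat, which encodes the acetyltransferase core E2, and Dld, which encodes the dihydrolipoamide dehydrogenase E3 shared with the 2-oxoglutarate dehydrogenase complex. Dlat had 90.5 and 84.9 CPM in Th17 libraries, against 38.9 and 50.6 CPM in naive libraries, a log2 fold change of 0.97 (SE 0.17, edgeR adjusted p 0.0012). Dld had 142 and 132 CPM in Th17 libraries, against 56.1 and 73.9 CPM in naive libraries, a log2 fold change of 1.08 (SE 0.18, edgeR adjusted p 6.9e-04). Both kept their call without Th17 library 2, at 1.02 and 1.13. The genes of the first enzyme, E1, did not pass. Pdha1, its alpha subunit, had 198 and 193 CPM in Th17 libraries, against 208 and 251 CPM in naive libraries. Pdhb, its beta subunit, had 95.6 and 87.6 CPM in Th17 libraries, against 96.8 and 119 CPM in naive libraries. Their values of -0.23 and -0.24 (SE 0.16 each) became 0.07 for each with unscaled library sizes. Pdhx, the E3-binding protein, had 20.6 and 19.2 CPM in Th17 libraries, against 18.3 and 19.1 CPM in naive libraries (log2 fold change 0.09, SE 0.17). In log2, Pdhb over Pdha1 reads lay between -1.14 and -1.05 in all 4 libraries, a change of -0.01. Pdha1 shares 603 exon bases with Map3k15 on the other strand, and shorter overlaps join Mdh1 with Wdpcp (52 bases), Me1 with A330041J22Rik (30 bases) and Idh3b with Nop56 (5 bases).

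The kinase genes that restrain this complex went opposite ways. Pdk1 fell, Pdk3 rose, and Pdk2 depended on Th17 library 2. Pdk1 (chr2:71873224-71903858) had 172 and 154 CPM in Th17 libraries, against 421 and 415 CPM in naive libraries, a log2 fold change of -1.36 (SE 0.16, edgeR adjusted p 1.0e-04), or -1.28 without Th17 library 2. Pdk3 (chrX:93764607-93832201), whose promoter stretch with ACGTG is shown above, had 78.4 and 71.1 CPM in Th17 libraries, against 24.2 and 25.4 CPM in naive libraries, a log2 fold change of 1.59 (SE 0.15, edgeR adjusted p 2.7e-05). For both genes the spread within a group was small beside the distance between the groups. Pdk2 had 2.57 and 17.2 CPM in Th17 libraries, against 16 and 16.9 CPM in naive libraries. Only Th17 library 1 was low, so the groups overlapped, with a log2 fold change of -0.76 (SE 1.15, edgeR adjusted p 0.61). It was -2.67 without Th17 library 2 (edgeR adjusted p 5.1e-14) and 0.03 without Th17 library 1. Per kilobase of exon, Pdk3 made up 57.2% and 52.4% of the sum of the 3 kinase genes in Th17 libraries, against 13.8% and 14.5% in naive libraries. Pdk1 made up 41.3% and 37.4% in Th17 libraries, against 78.9% and 77.7% in naive libraries. Pdk1 over Pdk3 reads came to a log2 ratio of 1.13 and 1.11 in Th17 cells and 4.12 and 4.03 in naive cells, a change of -2.95. Pdk3 was thus the most abundant of the 3 per kilobase in both Th17 libraries and Pdk1 in both naive libraries, although Pdk1 had more reads in all of them. With the longest transcript as the length, the Th17 shares were 51.9% and 47.4% for Pdk3 and 46.5% and 41.8% for Pdk1, a smaller margin.

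The phosphatase genes that reactivate the complex did not pass. Pdp1 had 20.4 and 23.5 CPM in Th17 libraries, against 15.3 and 18.0 CPM in naive libraries (log2 fold change 0.39, SE 0.19, edgeR adjusted p 0.094). Pdp2 had 22.9 and 25.3 CPM in Th17 libraries, against 21.3 and 15.7 CPM in naive libraries (log2 fold change 0.38, SE 0.20, edgeR adjusted p 0.13). Both lay higher in each Th17 library than in either naive library, and neither passed. Pdp1 over Pdp2 gave a log2 ratio of reads of -0.17 and -0.11 in Th17 cells, against -0.48 and 0.20 in naive cells, and its groups overlapped.

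Among the other enzymes of pyruvate, malate and citrate, Pcx and Acly rose and Me2 and Ldhb did not pass. Pcx (chr19:4510472-4621752), pyruvate carboxylase, which refills the cycle with oxaloacetate, had 28.0 and 53.3 CPM in Th17 libraries, against 4.40 and 5.07 CPM in naive libraries. Both Th17 libraries were above both naive ones, with a log2 fold change of 3.10 (SE 0.36, edgeR adjusted p 6.3e-04), an 8.59-fold difference. It was 2.57 without Th17 library 2, and the edgeR adjusted p was 0.063 without naive library 1 and 0.056 without naive library 2. Acly, ATP-citrate lyase, had 693 and 605 CPM in Th17 libraries, against 371 and 360 CPM in naive libraries, a log2 fold change of 0.83 (SE 0.17, edgeR adjusted p 0.0027). Me1, the cytosolic malic enzyme that yields NADPH, had 26 and 295 reads in Th17 libraries, 0.902 and 22.4 CPM, against 0 reads in either naive library. Set against 3 reads in each naive library, the group mean was at least 62.8-fold higher, and Th17 library 1 alone at least 4.87-fold higher. Me1 did not pass with all libraries (edgeR adjusted p 0.28) and passed without Th17 library 2 (edgeR adjusted p 2.6e-04). The mitochondrial Me2 had 139 and 134 CPM in Th17 libraries, against 156 and 149 CPM in naive libraries (log2 fold change -0.16, SE 0.15), a value that became 0.14 with unscaled library sizes. Ldhb, the lactate dehydrogenase subunit known for forming pyruvate from lactate, had 43.7 and 86.8 CPM in Th17 libraries, against 42.4 and 49.4 CPM in naive libraries. Th17 library 1 lay among the naive libraries, and the log2 fold change of 0.50 (SE 0.37, edgeR adjusted p 0.29) was -0.07 without Th17 library 2 and 0.89 without Th17 library 1, when it passed (edgeR adjusted p 1.5e-04).

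In the stretch of the cycle that leads to 2-oxoglutarate, Cs, Aco1 and Idh3a rose, Idh2 fell, and the other 3 genes did not pass. Cs, citrate synthase, had 405 and 339 CPM in Th17 libraries, against 246 and 290 CPM in naive libraries, a log2 fold change of 0.47 (SE 0.18, edgeR adjusted p 0.041). Its call was lost without Th17 library 1 at 0.31, without naive library 1 at 0.32 and without naive library 2 at 0.52. It was also lost with no filter on low counts (edgeR adjusted p 0.10) and with a minimum mean normalized count of 10 (edgeR adjusted p 0.073). Aco1, the cytosolic aconitase, which is also known as the iron regulatory protein IRP1, had 84.6 and 90.8 CPM in Th17 libraries, against 47.0 and 46.0 CPM in naive libraries (log2 fold change 0.92, SE 0.15, edgeR adjusted p 6.8e-04). Both replicate pairs of Aco1 were close and the groups did not overlap.

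Among the isocitrate dehydrogenase genes, Idh3a rose and Idh2 fell. Idh1 encodes the cytosolic and Idh2 the mitochondrial NADP-dependent enzyme, which can run in both directions, and Idh3a, Idh3b and Idh3g the subunits of the NAD-dependent enzyme of the cycle, with the catalytic one from Idh3a. Idh1 (chr1:65158616-65186500) had 18.3 and 71.5 CPM in Th17 libraries, against 5.52 and 5.84 CPM in naive libraries. Both Th17 libraries were above the naive ones but far from each other, and the log2 fold change of 2.97 (SE 0.95) had an edgeR adjusted p of 0.091. Without Th17 library 2 it was 1.69 (edgeR adjusted p 6.3e-08), and without Th17 library 1 it was 3.62. The authors' deposited table gives Idh1 a log2 fold change of 2.69 and an adjusted p of 3.3e-07. Idh2 (chr7:80094846-80115392) had 49.1 and 74.9 CPM in Th17 libraries, against 99.6 and 100.5 CPM in naive libraries, so that both Th17 libraries were lower. Its log2 fold change was -0.69 (SE 0.21, edgeR adjusted p 0.019), or -1.02 without Th17 library 2. It was not called without Th17 library 1 (-0.45), naive library 1 (-0.73) or naive library 2 (-0.75). Nor was Idh2 called with unscaled library sizes (-0.39, edgeR adjusted p 0.20). Idh3a had 121 and 104 CPM in Th17 libraries, against 52.2 and 64.0 CPM in naive libraries, a log2 fold change of 0.95 (SE 0.17, edgeR adjusted p 0.0012). Its partner subunits lay slightly lower in Th17 cells and did not pass. Idh3b had 135 and 133 CPM in Th17 libraries, against 140 and 157 CPM in naive libraries (log2 fold change -0.15, SE 0.15, and 0.15 with unscaled library sizes). Idh3g had 92.7 and 99.5 CPM in Th17 libraries, against 119 and 128 CPM in naive libraries (log2 fold change -0.36, SE 0.15, edgeR adjusted p 0.059). The authors' deposited table gives Idh3g a log2 fold change of -0.34 and an adjusted p of 0.0086.

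Set against each other within a library, these genes shifted in the same direction in both Th17 libraries. Idh1 over Idh2 reads gave a log2 ratio of -1.43 and -0.07 in Th17 cells, against -4.17 and -4.10 in naive cells, a change of 3.39, or 2.71 without Th17 library 2. For Idh2 over Idh3a it was -1.30 and -0.47 in Th17 cells, against 0.93 and 0.65 in naive cells. Idh2 thus had fewer reads than Idh3a in both Th17 libraries and more in both naive libraries. The ratios of Idh3b and Idh3g to Idh3a changed by -1.10 and -1.31. Per kilobase of exon, Idh3a was 19.4% and 13.5% of the sum of the 5 genes in Th17 libraries, against 7.58% and 8.6% in naive libraries. Idh2 was 15.4% and 19.2% in Th17 libraries, against 28.3% and 26.5% in naive libraries, and Idh1 was 5.36% and 17.1%, against 1.47% and 1.44%.

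**Figure D4:**
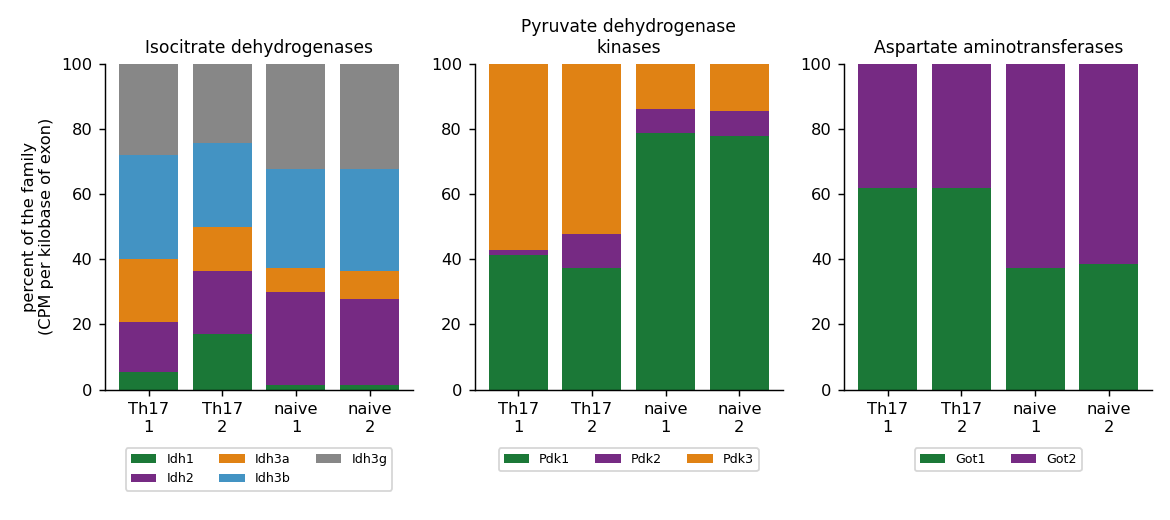
Share of each gene, in percent, of the summed CPM per kilobase of exon of its family in the 2 Th17 and 2 naive libraries, for isocitrate dehydrogenases, pyruvate dehydrogenase kinases and aspartate aminotransferases. Pdk3 takes 57.2% and 52.4% in Th17 libraries, against 13.8% and 14.5% in naive libraries, and Got1 61.8% and 61.9%, against 37.3% and 38.6%.

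In the stretch that leads from 2-oxoglutarate to oxaloacetate, 5 of 8 genes rose and Ogdh fell. That is 62.5% higher and 12.5% lower, beside 34.3% and 30.7% of all tested genes. Ogdh, the first subunit of the 2-oxoglutarate dehydrogenase complex, had 216 and 198 CPM in Th17 libraries, against 306 and 299 CPM in naive libraries, a log2 fold change of -0.55 (SE 0.16, edgeR adjusted p 0.013). The value was -0.48 without Th17 library 2 and -0.25 with unscaled library sizes, and it passed in neither. Dlst, its succinyltransferase subunit, had 194 and 185 CPM in Th17 libraries, against 159 and 177 CPM in naive libraries (log2 fold change 0.18, SE 0.15). Dlst over Ogdh reads gave a log2 ratio of -0.15 and -0.10 in Th17 cells, against -0.94 and -0.76 in naive cells, with no overlap. Succinyl-CoA ligase joins the alpha subunit from Suclg1 with a beta subunit from Sucla2, which makes ATP, or Suclg2, which makes GTP. Suclg1 rose, with 149 and 132 CPM in Th17 libraries, against 79.8 and 91.0 CPM in naive libraries (log2 fold change 0.72, SE 0.16, edgeR adjusted p 0.0036). Sucla2 rose, with 75.7 and 72.7 CPM in Th17 libraries, against 47.4 and 49.7 CPM in naive libraries (log2 fold change 0.61, SE 0.15, edgeR adjusted p 0.0056). Suclg2 had 57.5 and 74.8 CPM in Th17 libraries, against 49.3 and 62.2 CPM in naive libraries, with overlapping groups (log2 fold change 0.24, SE 0.19). For the beta subunits, the log2 ratio of Sucla2 to Suclg2 reads was 0.40 and -0.04 in Th17 cells, against -0.06 and -0.32 in naive cells, a change of 0.37 that is close to the spread between replicates (pooled SD 0.26). The ratio of Suclg2 to Suclg1 was -1.37 and -0.82, against -0.69 and -0.55.

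Fh1, fumarase, rose with 85.1 and 83.7 CPM in Th17 libraries, against 46.8 and 47.2 CPM in naive libraries (log2 fold change 0.84, SE 0.15, edgeR adjusted p 9.9e-04). Of the malate dehydrogenases, the mitochondrial Mdh2 had 447 and 412 CPM in Th17 libraries, against 240 and 292 CPM in naive libraries (log2 fold change 0.69, SE 0.17, edgeR adjusted p 0.0071). The cytosolic Mdh1 had 230 and 306 CPM in Th17 libraries, against 166 and 211 CPM in naive libraries (log2 fold change 0.51, SE 0.20, edgeR adjusted p 0.049). Both passed with all 4 libraries, Mdh1 only narrowly. Mdh1 was at 0.29 without Th17 library 2, 0.31 without naive library 1 and 0.62 without naive library 2 and was called in none of these. Nor was Mdh1 called with no filter on low counts (edgeR adjusted p 0.11) or a minimum mean normalized count of 10 (edgeR adjusted p 0.096). Mdh2 lost its call only without naive library 1 (0.51, edgeR adjusted p 0.057). Mdh1 over Mdh2 reads gave a log2 ratio of -0.96 and -0.43 in Th17 cells, against -0.53 and -0.47 in naive cells, with overlapping groups.

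The sole edited RNA site listed for these genes lies in Ogdh, in a table of 869 sites in Th17 and naive cells. It sits at chr11:6355673 on the plus strand of mm10, the middle base of the stop codon at 6355672 to 6355674, and it is the 1 site that the file places at a stop codon. The stretch around it, read from the GENCODE M21 transcript, is shown because the site lies in a codon that ends the protein; capitals mark that codon.
Ogdh (chr11:6355658-6355687, plus strand): tcaagaaattctctTAGatgctcctggagt
An A-to-I change, read as G, would turn TAG into TGG, and the next stop in frame is TGA, 14 codons on. The site was not listed for Th17 cells, and its deposited edited fraction was 9.09% and 17.2% in the naive libraries. The number of reads behind these values is unknown, and whether the levels differ between the groups was not tested. Of 355 sites in the table of DDX5-deficient and wild-type Th17 cells, 0 lay in the 36 genes.

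All 4 genes at the link to glutamate rose, beside 34.3% of all tested genes called higher. Their median log2 fold change was 2.06, or 2.17 without Th17 library 2. Gpt2 (chr8:85492576-85527560), the mitochondrial alanine aminotransferase, had 27.6 and 27.9 CPM in Th17 libraries, against 0.265 and 0.775 CPM in naive libraries, where it had only 5 and 11 reads. Its level was 53.3-fold higher, a log2 fold change of 5.78 (SE 0.41, edgeR adjusted p 1.6e-05), or 5.11 without naive library 1 and 6.60 without naive library 2. Its cytosolic counterpart Gpt, outside the 36 genes, fell instead, with 5.06 and 4.47 CPM in Th17 libraries, against 11.2 and 10.8 CPM in naive libraries (log2 fold change -1.20, SE 0.28, edgeR adjusted p 0.0046). The log2 ratio of Gpt2 to Gpt reads was 2.44 and 2.63 in Th17 cells, against -5.27 and -3.74 in naive cells. Per kilobase, Gpt2 was 2.84 and 3.25 times Gpt in Th17 libraries and 0.0124 and 0.0375 times Gpt in naive libraries.

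The aspartate aminotransferases of the malate-aspartate shuttle both rose. Got1 (chr19:43499752-43524605), the cytosolic form whose promoter stretch is shown above, had 243 and 206 CPM in Th17 libraries, against 30.8 and 35.5 CPM in naive libraries. The groups were far apart, with a log2 fold change of 2.76 (SE 0.17, edgeR adjusted p 2.2e-06), a 6.77-fold difference. Got2, the mitochondrial form, had 285 and 241 CPM in Th17 libraries, against 98.1 and 107 CPM in naive libraries, a log2 fold change of 1.35 (SE 0.16, edgeR adjusted p 1.1e-04). The values were 2.88 and 1.47 without Th17 library 2. The log2 ratio of Got1 to Got2 reads was -0.23 and -0.22 in Th17 cells, against -1.67 and -1.60 in naive cells, a change of 1.41 with a pooled SD of 0.04. Per kilobase of exon, Got1 was 61.8% and 61.9% of their sum in Th17 libraries, against 37.3% and 38.6% in naive libraries. With the longest transcript as the length the shares were 51.2% and 51.3%, against 27.8% and 28.9%. Got2 shares 434 exon bases with Gm45760 on the other strand and has the named pseudogene Got2-ps1, so some of its reads may be uncertain. Glud1, glutamate dehydrogenase, had 391 and 357 CPM in Th17 libraries, against 228 and 250 CPM in naive libraries (log2 fold change 0.65, SE 0.16, edgeR adjusted p 0.0068). It was not called without naive library 1 (0.54, edgeR adjusted p 0.054).

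**Figure D5:**
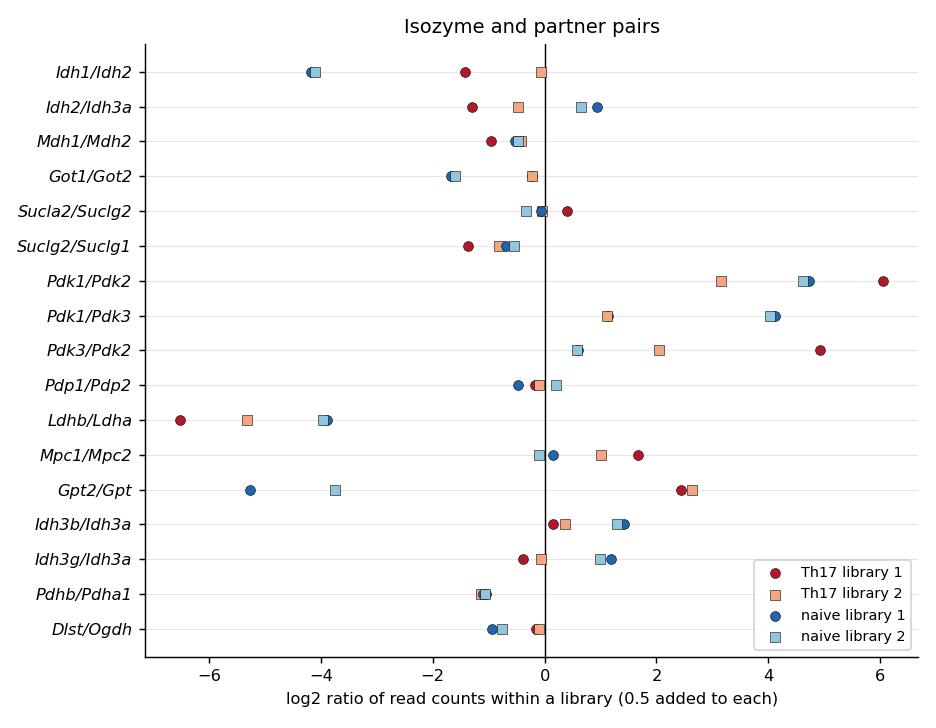
log2 ratio of read counts within a library (0.5 added to each count) for 17 pairs of isozymes or partner subunits in the 2 Th17 libraries (red) and 2 naive libraries (blue); Me1/Me2 is left out because Me1 had no naive read. Pdk1/Pdk3 lies at 1.13 and 1.11 in Th17 libraries, against 4.12 and 4.03 in naive libraries, and Got1/Got2 at -0.23 and -0.22, against -1.67 and -1.60.

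Of 18 pairs described here, those of Idh1 with Idh2, Idh2 with Idh3a, Got1 with Got2, Me1 with Me2, Pdk1 with Pdk3, Pdk3 with Pdk2, Mpc1 with Mpc2 and Gpt2 with Gpt did not overlap between the groups. Nor did those of Ldhb with Ldha, Idh3b and Idh3g with Idh3a, Dlst with Ogdh, and Suclg2 with Sucla2 and Suclg1. The 4 others, of Mdh1 with Mdh2, Pdp1 with Pdp2, Pdk1 with Pdk2 and Pdhb with Pdha1, overlapped. Of all tested genes taken singly, 85.0% did not overlap either, and the share over pairs of other genes was not measured. The count of pairs is therefore not read as a trait of these genes. With 2 libraries against 2, an exact two-sided permutation test cannot go below 0.333, so the ratios are described with no call. The ratio of Ldhb to Ldha reads was -6.52 and -5.32 on the log2 scale in Th17 cells, against -3.88 and -3.97 in naive cells, and Ldha, known for forming lactate, rose by 2.42 (SE 0.22). The ratio of Pdk3 to Pdk2 was 4.92 and 2.04 in Th17 cells, against 0.60 and 0.59 in naive cells, and that of Pdk1 to Pdk2 was 6.05 and 3.16, on either side of the naive 4.72 and 4.61.

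By compartment, 4 of the 7 cytosolic genes rose and 0 fell, and 14 of the 29 mitochondrial genes rose and 3 fell. That is 57.1% and 48.3% higher, beside 34.3% of all tested genes, and 0% and 10.3% lower, beside 30.7%. The cytosolic genes were Aco1, Idh1, Mdh1, Me1, Acly, Got1 and Ldhb, with a median log2 fold change of 0.92, or 0.93 without Th17 library 2, when 5 rose. The mitochondrial genes had a median of 0.39, or 0.30 without Th17 library 2, with the same counts of 14 and 3. Summed levels of the cytosolic genes were 1313 and 1389 CPM in Th17 libraries, against 663 and 708 CPM in naive libraries. Those of the mitochondrial genes were 3833 and 3640 CPM in Th17 libraries, against 3039 and 3326 CPM in naive libraries. Both sums were higher in both Th17 libraries, and the difference between compartments was not tested. Me1, Idh1 and Ldhb, the 3 cytosolic genes that did not pass with all libraries, are among the 7 genes that were over 1.5-fold higher in Th17 library 2.

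Levels were compared between genes per kilobase of exon. In Th17 libraries Acly had 131 and 115 CPM per kilobase, Mdh2 125 and 116, Mdh1 89.5 and 119, Got1 95.5 and 81.2, and Glud1 92.9 and 84.8. The ranges of Acly, Mdh2 and Mdh1 overlapped, as did those of Mdh1, Got1 and Glud1, so these neighbours cannot be ranked by this length. With the longest transcript as the length, Mdh2 lay above Mdh1 in every library. It was then 72.0% and 64.0% of the sum of Mdh1 and Mdh2 in Th17 libraries, against 65.7% and 64.6% in naive libraries. In naive libraries Mdh2 had 67.4 and 82.1 CPM per kilobase, Mdh1 64.6 and 82.3, Acly 70.4 and 68.3, Pdha1 55.8 and 67.2, and Glud1 54.2 and 59.4. Got1, with 12.1 and 14 CPM per kilobase in naive libraries, was far below these. The lowest mean levels in Th17 cells were those of Me1, with 0.234 and 5.81 CPM per kilobase, and Pdk2, with 0.812 and 5.44. In naive cells the lowest were Me1 with no reads, Gpt2 with 0.0470 and 0.137, Pcx with 0.927 and 1.07, and Idh1 with 1.99 and 2.11 CPM per kilobase.

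Other genes of these pathways were read from 4 lists, beside the same shares of all tested genes, 34.3% higher and 30.7% lower. Of 14 tested TCA and lipoate genes, 3 rose and 3 fell. Sdhd, a subunit of succinate dehydrogenase, rose by 0.87 (SE 0.16) on the log2 scale, while D2hgdh, whose enzyme removes D-2-hydroxyglutarate, changed by -0.92 (SE 0.16). The other succinate dehydrogenase subunits did not pass, with Sdha at -0.40 (edgeR adjusted p 0.055), Sdhb at 0.19 and Sdhc at 0.15. With Th17 library 2 left out, 4 of 16 rose and 3 fell. Of 9 tested pyruvate and lactate genes, 5 rose and 1 fell. Slc16a3, a lactate exporter, rose by 7.31 (SE 0.22), Ldha by 2.42 (SE 0.22) and Pkm, pyruvate kinase, by 2.29 (SE 0.22), while Acss2, the acetyl-CoA synthetase outside mitochondria, changed by -2.74 (SE 0.34). Acss1, its mitochondrial form, had 5.10 and 23.9 CPM in Th17 libraries, against 94.3 and 92.2 CPM in naive libraries, and did not pass (edgeR adjusted p 0.12), but passed without Th17 library 2 at -4.19. Ldhd had 3.71 and 54.0 CPM in Th17 libraries, against 11.0 and 11.8 CPM in naive libraries. Its log2 fold change of 1.33 (SE 1.68) did not pass, and it turned to -1.61 without Th17 library 2 and passed (edgeR adjusted p 1.5e-05). Pdpr, at -0.56, did not pass. Leaving out Th17 library 2, 5 rose and 3 fell. Pck1, of gluconeogenesis, had reads in a single library and did not pass the filter, with 0 and 80.7 CPM in Th17 libraries and 0 reads in naive libraries.

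Of 16 tested glutamine and glutamate genes, 7 rose and 4 fell. Gls2, a glutaminase, had 58.3 and 48.3 CPM in Th17 libraries and 0 reads in either naive library, at least 288-fold higher against 3 reads per naive library. Asns, asparagine synthetase, rose by 7.98 (SE 0.29) and Psat1, of serine synthesis, by 2.98 (SE 0.20), while Gpt fell as given above. The glutamine transporter genes Slc1a5 at -0.18 and Slc38a1 at 0.29 did not pass, nor did Oat at 0.40. Aldh4a1 did not pass at -0.67 with all libraries and passed at -1.27 without Th17 library 2 (edgeR adjusted p 2.1e-06). Without Th17 library 2, 7 rose and 5 fell. Of 7 tested shuttle and carrier genes, 4 rose and 1 fell. Slc25a13, a mitochondrial aspartate-glutamate carrier, rose by 4.31 (SE 0.21), with 38.2 and 40.5 CPM in Th17 libraries, against 2.18 and 1.76 CPM in naive libraries. Its isoform Slc25a12 did not pass at -0.09, nor did the malate carrier Slc25a11 at 0.02, and without Th17 library 2 they were at 0.21 and -0.01, again short of a call. Slc25a1, the citrate exporter that feeds ATP-citrate lyase, rose by 2.01 (SE 0.16) and Gpd2, of the glycerol phosphate shuttle, by 1.97 (SE 0.24). The fourth to rise was Slc25a10 at 0.99 (SE 0.28), which did not pass without Th17 library 2, when 3 rose and 0 fell.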

How the data were processed

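Ribosome-depleted RNA of mouse CD4 T cells was sequenced in 8 libraries, of which 4 had a gene table. Per the submitters' processing notes, STAR 2.6.1a, featureCounts, DESeq2 1.18.1 and mm10 were used; strand use is not stated. The deposited table holds reads per gene as counts, called original per the file headers. The authors divided them by a size factor per library to make a normalized signal, and their DESeq2 columns give a log2 fold change, a Wald score and p-values. The authors' editing tables give an edited fraction per site and library, printed as percent, and a confidence score; the labels name SAILOR at a confidence of 0.99.

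Counts were tested with edgeR 4.0.16 in R 4.3.3 (filterByExpr, TMM, robust quasi-likelihood fit on group, Benjamini-Hochberg over all genes, threshold 0.05). The fit was also run on simulated counts, in which fewer genes changed and no library stood apart as Th17 library 2 did. That run does not measure how the fit handles such a library. CPM used TMM-scaled library sizes, and levels per kilobase used the union of exons in GENCODE M21, to which 16295 of 16308 genes were matched by identifier. Pair ratios added 0.5 to each count. Folds against 0 reads used 3 reads per naive library. The SE of a log2 fold change was derived from the F statistic of the quasi-likelihood test, so it holds the fitted spread between libraries. The floors cover counting error only. Alternatives were other scalings (RLE, unscaled), filters (none, a mean normalized count of 10), DESeq2 1.42.0, a replicate block and each library left out. All 36 genes are named; of the other lists, at most the 4 largest changes past the threshold and those that did not pass; some of these are not reported here. The genes, lists and tests were chosen with earlier results of these data known, and the kidney tubule, fibroblast and endothelial lists after the libraries were seen.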

Additional observations from a re-analysis of the deposited data

How the results depend on the processing

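Of the 21 genes called, 14 kept their call under all 10 alternatives: Acly, Aco1, Dlat, Dld, Fh1, Got1, Got2, Gpt2, Idh3a, Mpc1, Pdk1, Pdk3, Sucla2 and Suclg1. Calls of Cs, Glud1, Idh2, Mdh1, Mdh2, Ogdh and Pcx were lost under at least 1. With a single library left out, 13 to 21 of the 36 were higher and 2 to 3 lower, 3 to 7 cytosolic and 10 to 14 mitochondrial genes were higher, and 2380 to 4847 of all genes were higher and 2567 to 3672 lower; a group's lone library was taken to vary as the other group does. With unscaled library sizes 1 of the 36 was called lower, the mitochondrial Pdk1, while Idh2 (-0.39) and Ogdh (-0.25) lost their calls. Pdha1 (0.072), Pdhb (0.066), Me2 (0.14) and Idh3b (0.15) changed sign. Without Th17 library 2 the log2 fold changes were -0.14 for Mpc2, -2.67 for Pdk2 and -0.066 for Ldhb, and without Th17 library 1 they were 0.53, 0.034 and 0.89; beyond the libraries left out, the cause was not tested. DESeq2 called 20 higher and 4 lower, adding Idh1, Me1 and Idh3g.

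Across genes, the deviations from the group means of libraries with the same replicate number had a correlation of -0.08. In groups of 2 libraries the 2 deviations mirror each other, so both numbers give this value. The libraries numbered 2, which share a code in their descriptions, thus could not be judged on their own. The Th17 deviation also carries the kidney tubule and fibroblast RNA of Th17 library 2, so the value cannot show whether libraries were paired. As there were 2 numbers, the block was not used as the main fit. With the replicate block 18 of the 36 were higher and 3 lower, and 4094 and 3644 of all genes; Cs was not called (edgeR adjusted p 0.051) and Me1 was. Depth limits Me1, with 26 reads in Th17 library 1 and 0 naive reads, and Gpt2, with 5 and 11 naive reads.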
